A study of Mus musculus with 8 samples.

Results

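CD11b+Gr-1hi cells of the spleen (SP) were compared with CD11b+Gr-1hi cells of the bone marrow (BM) of sanroque mice, and 4 of the 8 RNA-seq libraries of the series entered the comparison. Libraries 5 and 6 were SP Gr-1hi, and libraries 9 and 10 were BM Gr-1hi. Library numbers follow the sample titles. The remaining libraries were SP Gr-1lo (7 and 8) and BM Gr-1lo (11 and 12) cells of the same strain. All 8 libraries came from mice on the C57BL/6 background, labelled female and 20 weeks old, that were homozygous for the sanroque allele of Roquin (Roquin san/san), so no wild-type library stands beside them. The submitters label the Gr-1hi cells as granulocytic MDSCs (myeloid-derived suppressor cells), and the cells of these libraries were sorted on 2 surface markers, CD11b and Gr-1. The study describes the 2 libraries of a group as independent biological replicates and the BM cells as autologous to the SP cells. Neither the labels nor the methods say how many mice gave a library or which SP and BM libraries shared a mouse, so the p values measure the spread between these samples.

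As background, the Gr-1 antibody binds Ly6G, a surface protein of granulocytes, and more weakly Ly6C of monocytes, so that a Gr-1hi gate on CD11b+ cells holds mainly neutrophils and their late precursors. Neutrophils mature in the BM, where they make the contents of primary granules first, then those of secondary and gelatinase granules, before they enter blood and tissues such as the SP. Roquin is an RNA-binding protein that limits mRNAs of inflammatory and costimulatory proteins, and the sanroque allele leads to a lupus-like disease with excess IFN-γ. The question put to the data was which genes differ between cells of one surface phenotype in the 2 organs.

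The deposited table held read counts for 54188 genes. Of these, 17650 passed a filter on low counts and were tested. The account rests on the 7256 genes that reached at least 10 CPM (counts scaled to the size of the library, with TMM factors) in both BM Gr-1hi libraries, called marrow-expressed here, so that transcripts absent from the BM cells do not lead it. Gngt2 lay just inside this limit at 10.02 CPM in its lower BM library and Coa4 just outside at 9.99 CPM. The 4 Gr-1hi libraries held between 33453580 and 38483540 counts, and for a gene without reads the limit was set at 3 counts (0.0904 to 0.124 CPM), which covers counting error only. Over marrow-expressed genes the median difference between replicates was 0.149 on the log2 scale in the SP and 0.113 in the BM, and 90 genes (1.24%) and 29 genes (0.4%), respectively, differed by over 2-fold within a pair.

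The markers of the gate were present in all 4 libraries. Ly6g was at 330.0 and 495 CPM in SP libraries 5 and 6 and at 685 and 801 CPM in BM libraries 9 and 10, with a log2 FC (SP minus BM) of -0.85 ± 0.29 (SE) and an adjusted p of 0.0562 in edgeR's quasi-likelihood test. S100a9, a subunit of calprotectin, was at 26707 and 32892 CPM in the SP and at 45181 and 50285 CPM in the BM, a log2 FC of -0.68 ± 0.15 (adjusted p = 0.0103). Its partner S100a8 gave a log2 FC of -0.68 ± 0.16. The SP libraries lay below the BM libraries for all 3 markers, and none of the 3 reached a 2-fold difference. Library 5 stood apart from the other Gr-1hi libraries in sex-linked transcripts: Xist was at 363 CPM in library 5 and at most 0.0374 CPM in libraries 6, 9 and 10, whereas the Y-linked Ddx3y had no read in library 5, where 3 counts (0.0904 CPM) is the limit, and lay at 82.6, 79.1 and 71.2 CPM in libraries 6, 9 and 10. All 4 are labelled female. In these transcripts library 5 matched that label, and libraries 6, 9 and 10 did not. Library 5 thus matched neither BM library. Results without library 5, and without each other library, are therefore given beside the main counts.

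Transcripts of other cell types differed between the organs as well, and they are given before the results because they bear on them. The 15 B cell genes summed to 1740 and 1080 CPM in SP libraries 5 and 6 against 202 and 180 CPM in BM libraries 9 and 10. The 15 T cell genes summed to 191 and 118 CPM against 12.5 and 9.08 CPM, and the 11 plasma cell genes to 1620 and 1600 CPM against 85.4 and 73.8 CPM. Over all 17650 genes tested, 14.0% were called higher and 1.48% lower in the SP. Called higher were 15 of 15 B cell, 14 of 15 T cell, 11 of 11 plasma cell and 7 of 9 NK cell genes. None of these groups overlapped in summed level between SP and BM. Splenic macrophage genes summed to 1140 and 974 CPM in the SP and 675 and 611 CPM in the BM, with 7 of 14 called higher. Erythroid genes summed to 233 and 750 CPM in the SP and 48.7 and 60.5 CPM in the BM, and library 6 was the highest. Of 12 dendritic cell genes 6 were called higher and 2 lower, and of 14 eosinophil and basophil genes, which summed to 75 and 76.4 CPM in the SP and 132 and 86.6 CPM in the BM, 2 were called higher and 5 lower. Monocyte genes summed to 2510 and 2630 CPM in the SP and 2130 and 2580 CPM in the BM. Of the 14, 3 were called higher, near the share of all genes tested, and none lower, with a median log2 FC of 0.93. Of the 6 marrow-expressed ones 5 lay above 0, and Csf1r, the receptor of M-CSF, was called higher (1.05), in 2 of the 4 fits without a library. Ly6c2, the most abundant monocyte gene in the BM, was at 585 and 830 CPM against 1133 and 1516 CPM (-0.90). The 13 neutrophil genes summed to 90100 and 122000 CPM in the SP and to 164000 and 178000 CPM in the BM. In such bulk libraries, fewer cells of a type and less RNA per cell cannot be told apart.

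**Figure D1:**
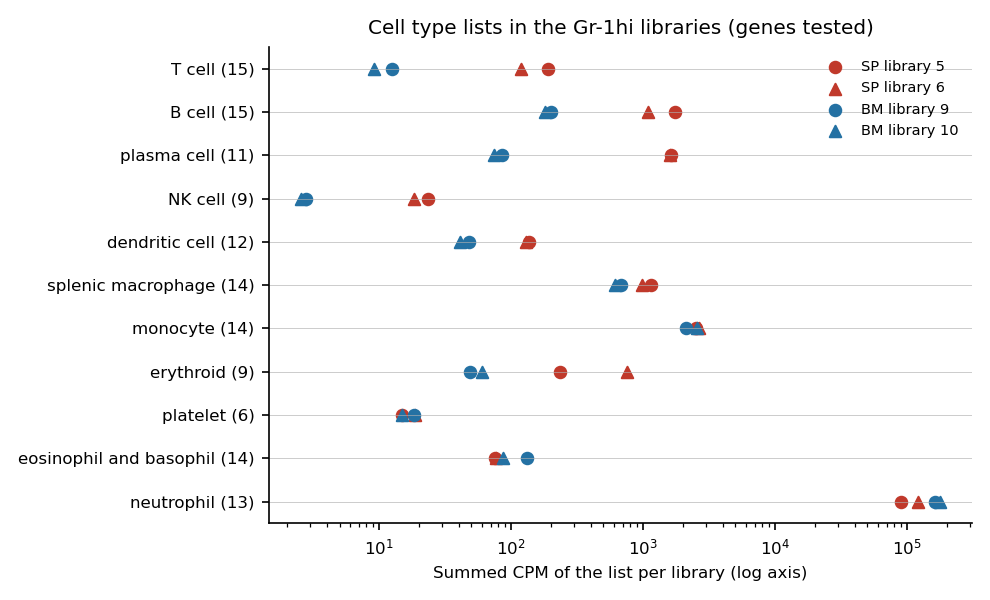
Summed CPM (x axis, log scale) of 11 cell type lists (y axis, number of tested genes in parentheses) in SP libraries 5 and 6 (red) and BM libraries 9 and 10 (blue); each point is 1 library. The T, B, plasma and NK cell lists lie higher in both SP libraries, the monocyte and platelet lists overlap, and the neutrophil list is highest in the BM, at 164000 and 178000 CPM.

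DEGs had to reach an FC of 2 or more together with an adjusted p no higher than 0.05. Of the 7256 marrow-expressed genes, 174 (2.40%) were called higher and 111 (1.53%) lower in SP than in BM Gr-1hi cells. Over all 17650 genes tested, 2465 (14.0%) were called higher and 262 (1.48%) lower, so that 2291 of the 2465 higher calls belonged to genes outside the marrow-expressed set. The median log2 FC was 0.03 over all genes tested and -0.17 over marrow-expressed genes. Without the fold limit, 699 marrow-expressed genes passed the adjusted p on the higher side and 2183 on the lower side. The increases were larger than the decreases: 21 of 174 reached 4-fold on the way up and 4 of 111 on the way down. Of the called genes, 165 of the 174 and 94 of the 111 were annotated as protein coding, and the groups did not overlap for any of the 285, which the call itself favours.

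The balance between the directions depended on the scaling. Scaling by RLE gave 146 higher and 182 lower, upper-quartile scaling 214 and 85, and TMM factors computed on marrow-expressed genes alone 264 and 54, and the share of higher calls was 44.5%, 71.6% and 83% against 61.1% in the main fit. The median of marrow-expressed genes shifted to -0.25, -0.10 and 0.00, respectively, and each fold change below can be read against these medians. Library 5 lay further from the BM than library 6 in 163 of the 174 higher genes and in 97 of the 111 lower genes. Without library 5, 66 genes were called higher and 59 lower, and without library 6, 189 and 552. Without library 9 the counts were 133 and 171, and without library 10, 163 and 199. Of the 285 genes, 57 higher and 38 lower ones were called in all 4 of these fits.

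**Figure D2:**
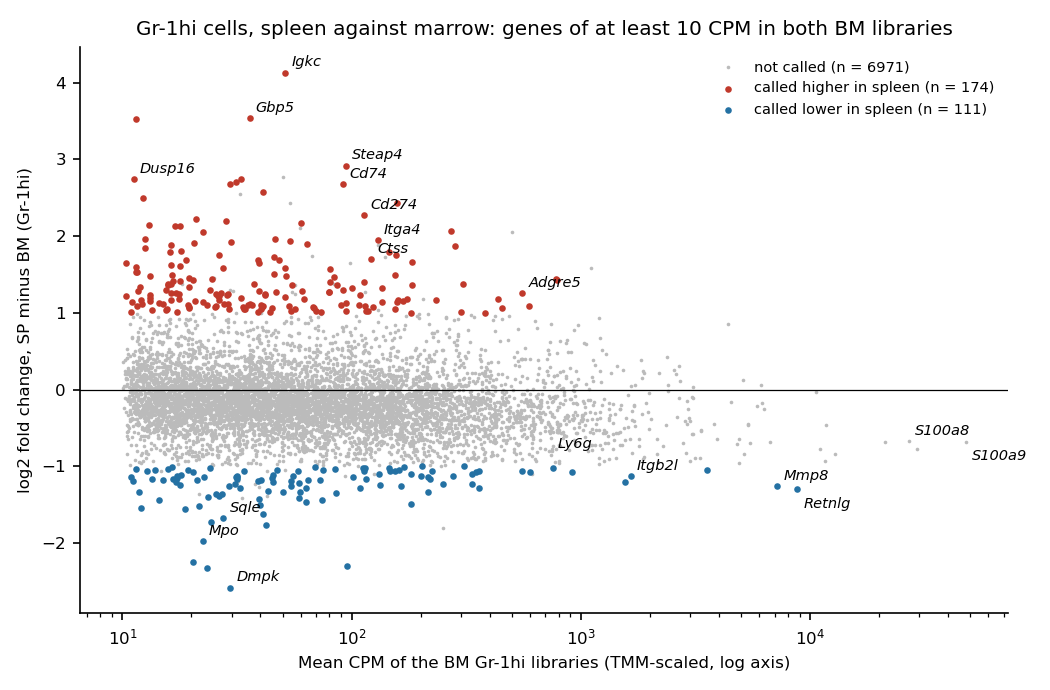
Mean CPM of the BM Gr-1hi libraries (x axis, log scale) against the log2 FC of SP minus BM Gr-1hi cells (y axis) for the 7256 marrow-expressed genes; red, 174 called higher, blue, 111 called lower, grey, not called. Increases reach a log2 FC of 4.13 (Igkc) and decreases -2.58 (Dmpk), and the most abundant called genes, Retnlg and Mmp8, lie on the lower side.

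The largest increases joined genes of antigen presentation, immunoglobulin genes, interferon-induced GTPases and a few genes of other roles. Igkc, the constant region of the immunoglobulin kappa chain (chr6:70726435-70726966, GRCm38), was at 969 and 828 CPM in SP libraries 5 and 6 and at 54.7 and 47.9 CPM in BM libraries 9 and 10, a log2 FC of 4.13 ± 0.24 (adjusted p = 9.29e-05). Ighm, the constant region of IgM, was at 1074 and 622 CPM against 167 and 148 CPM (2.43 ± 0.34). Both are genes of B cells and plasma cells, whose lists were higher in the same libraries as given above, and their part in these differences was not tested. Hba-a1, a globin of red cells, was at 65.0 and 199.5 CPM in the SP and at 10.1 and 12.9 CPM in the BM (3.52 ± 0.56), and like the erythroid list it was highest in library 6. Steap4, a metalloreductase that neutrophils express, was at 1035 and 394 CPM in the SP and at 89.1 and 99.98 CPM in the BM, a log2 FC of 2.92 ± 0.43 (adjusted p = 0.00396). In Gr-1lo cells Steap4 lay between 0.680 and 2.60 CPM. Dusp16, a phosphatase of JNK and p38 kinases, was at 87.6 and 62.7 CPM against 12.0 and 10.4 CPM (2.75 ± 0.20), and Pmaip1, which encodes the BH3-only protein NOXA, at 61.4 and 78.3 CPM against 14.5 and 10.2 CPM (2.499 ± 0.19). Steap4, Dusp16 and Pmaip1 were each called in all 4 fits that left out a library.

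All 6 marrow-expressed genes of MHC class II presentation rose, with a median log2 FC of 2.63. Cd74, the invariant chain that guides class II molecules to the endosome, was at 687 and 491 CPM in SP libraries 5 and 6 and at 71.1 and 113 CPM in BM libraries 9 and 10, a log2 FC of 2.68 ± 0.46 (adjusted p = 0.00688). The class II chains H2-Ab1, H2-Eb1 and H2-Aa gave log2 FCs of 2.74 ± 0.55, 2.71 ± 0.44 and 2.57 ± 0.50, and H2-Aa, for example, was at 283 and 207 CPM against 30.8 and 51.5 CPM. Ctss, the protease that trims the invariant chain, was at 462 and 327 CPM against 80.8 and 162 CPM (1.70 ± 0.32). With the genes under 10 CPM included, all 14 tested genes of the list were called higher. Of the 6 marrow-expressed ones DESeq2 called all 6, and edgeR without a filter on low counts called 2 (median 2.65). B cells express these genes too, the B cell list moved with them as given above, and its part was not tested. Without library 5, 1 of the 6 was called, without library 9, 4, and without library 6 or 10, all 6. By contrast, neither edgeR nor DESeq2 called a gene of the 15 in the MHC class I list, although all 15 had a log2 FC above 0 (median 0.40) and 5 had an unadjusted p under 0.05. B2m, the light chain of class I, was at 3115 and 2980 CPM in the SP and at 2329 and 2758 CPM in the BM (0.26 ± 0.13, adjusted p = 0.143).

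**Figure D3:**
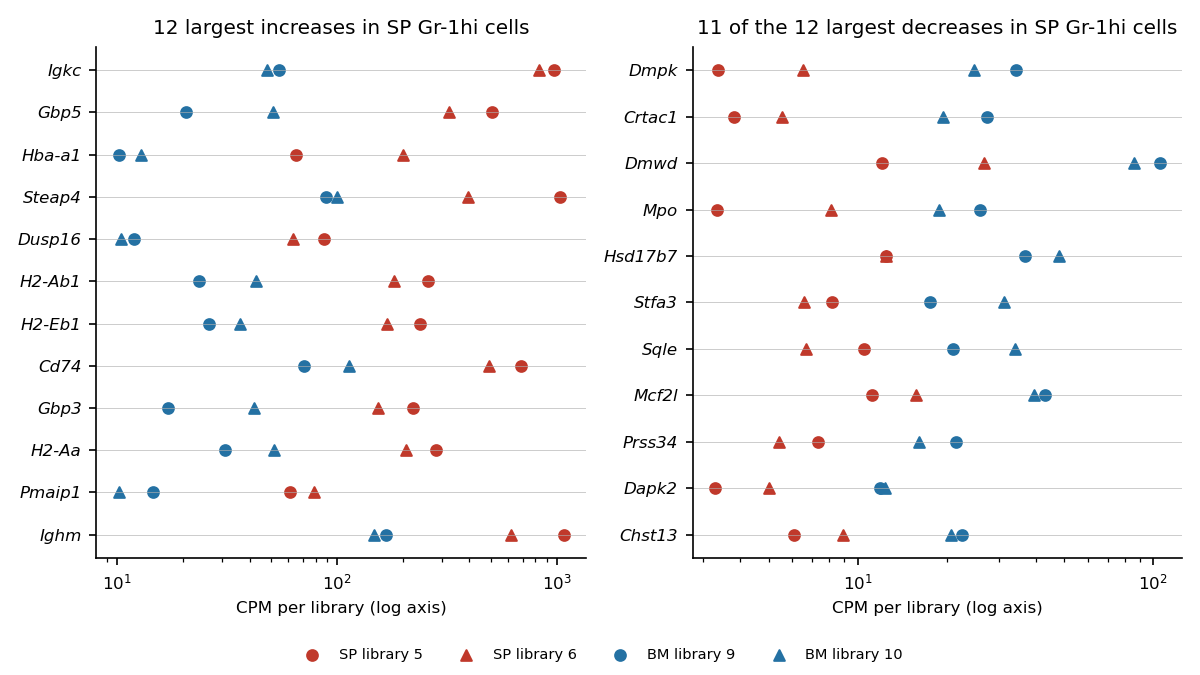
CPM per library (x axis, log scale) of the 12 marrow-expressed genes with the largest increases (left) and 11 of the 12 with the largest decreases (right) in SP Gr-1hi cells; red, SP libraries 5 (circle) and 6 (triangle), blue, BM libraries 9 (circle) and 10 (triangle). The red and blue points do not overlap for any of the 23 genes, which the choice of the genes required. The gap is widest for Igkc on the left and Dmpk on the right.

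Interferon-induced genes lay higher in the SP as a group, with the IFN-γ list ahead of the type I list. Of 17 marrow-expressed genes of the IFN-γ list, 4 were called higher and none lower, and the median log2 FC was 1.72. Of the 30 in the type I list, 6 were called higher and none lower, 28 lay above 0, and the median was 0.75, against -0.17 over all marrow-expressed genes. Gbp5, a guanylate-binding GTPase of cell-autonomous immunity (chr3:142493978-142522344), was at 507 and 323 CPM in SP libraries 5 and 6 and at 20.5 and 51.2 CPM in BM libraries 9 and 10, a log2 FC of 3.53 ± 0.64 (adjusted p = 0.00974). Its relative Gbp3 was at 222 and 154 CPM against 16.9 and 42.0 CPM (2.68 ± 0.51), and Gbp7 at 905 and 684 CPM against 209 and 403 CPM (1.38 ± 0.41). Cd274, which encodes the inhibitory ligand PD-L1, was at 649 and 441 CPM against 70.2 and 156 CPM (2.27 ± 0.58, adjusted p = 0.0294).

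The 2 BM libraries were unequal for these genes, with library 9 below library 10 for each of the 4, for 16 of the 17 genes of the IFN-γ list and for all 30 of the type I list. Gbp4 showed the same at 15.1 and 85.3 CPM in the BM beside 386 and 297 CPM in the SP, and it was not called (adjusted p = 0.103). The number of IFN-γ genes called was accordingly 13 without library 10 and 2 without library 9, and it was 0 without library 5 and 3 without library 6. DESeq2 called 12 of the 17 and 6 of the 30 in the type I list. Without a filter on low counts, edgeR called 0 of the 17 and 3 of the 30, with medians of 1.75 and 0.77. In the type I list 2 genes were called without library 5, 5 without library 6, 2 without library 9 (median 0.43) and 9 without library 10. Among genes of the type I list, Slfn5 was at 526 and 485 CPM in the SP and at 137 and 156 CPM in the BM, a log2 FC of 1.79 ± 0.11 (adjusted p = 8.11e-05), and it was called in all 4 fits without a library. Ifit2, an antiviral protein with tetratricopeptide repeats, was at 177 and 185 CPM against 29.8 and 62.7 CPM (1.97 ± 0.40). Ifit3 was at 306 and 378 CPM against 96.9 and 175 CPM (1.33 ± 0.37). Gvin1 and Gm4070, near-identical genes for a very large interferon-inducible GTPase, had nearly equal levels in each library (1.43 ± 0.42 and 1.44 ± 0.42), may share reads and are read as 1 result.

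The promoters of the called interferon genes show the letters TTTCNNTTTC, the core of the interferon-stimulated response element, to which IRF factors bind. Promoter windows of RefSeq (GRCm38.p6, 250 bases before to 50 after the start) were searched on both strands. The letters were in 8 of the 10 genes that were called higher in either list, in 24 of 134 (17.9%) marrow-expressed genes called higher with a window, in 1 of 82 (1.22%) called lower and in 436 of 10747 (4.06%) of all genes tested. Gbp3, Gbp5, Ifit1, Ifit3 and Isg15 are shown because they hold a single match, a pair or an overlapping run of the letters. Each line gives 60 bases on the strand of the gene, 5′ to 3′, with the matches in capitals; in Isg15 they read in reverse complement. The stretches lie at chr3:142559977-142560036 (Gbp3), chr3:142496744-142496803 (Gbp5), chr19:34640769-34640828 (Ifit1), chr19:34583365-34583424 (Ifit3), all on the plus strand, and chr4:156200856-156200915 on the minus strand (Isg15).
Gbp3: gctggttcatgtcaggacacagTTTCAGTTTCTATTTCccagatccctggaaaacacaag
Gbp5: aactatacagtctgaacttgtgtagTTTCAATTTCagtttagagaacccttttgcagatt
Ifit1: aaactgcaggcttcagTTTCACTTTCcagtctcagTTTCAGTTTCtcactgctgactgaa
Ifit3: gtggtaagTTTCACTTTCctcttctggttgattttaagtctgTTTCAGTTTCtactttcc
Isg15: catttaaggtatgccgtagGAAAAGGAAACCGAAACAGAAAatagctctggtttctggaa
Gbp5 holds a single match, Ifit1 and Ifit3 a pair, Gbp3 a pair that overlaps and Isg15 a run of 3 that overlap. The stretch of Ifit3 occurs letter for letter before Ifit3b (chr19:34607761-34607820), and reads of these 2 genes may be split between them. Such a match is a description of the letters and not a measured site.

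Some genes of adhesion and surface sensing were called higher. Of 16 marrow-expressed homing and adhesion receptors, 3 were called higher and none lower, against 2.40% and 1.53% of all marrow-expressed genes. With the genes under 10 CPM included, 6 of 20 were called higher and none lower, against 14.0% and 1.48% of all genes tested. Those under the limit were Icam1, S1pr1 and Ccr7. Icam1 was at 56.0 and 39.2 CPM in the SP and at 4.79 and 5.33 CPM in the BM (log2 FC 3.24). The lymphoid lists were higher in the same libraries, and their part was not tested. Itga4, the α4 chain of the integrin VLA-4 that binds VCAM-1, was at 541 and 463 CPM in SP libraries 5 and 6 and at 135 and 125 CPM in BM libraries 9 and 10, a log2 FC of 1.95 ± 0.13 (adjusted p = 9.46e-05). Its partner Itgb1, the β1 chain, was at 98.3 and 76.3 CPM against 42.8 and 39.5 CPM (1.08 ± 0.13). The chemokine receptor genes Cxcr2 and Cxcr4, which guide neutrophils out of and back to the BM, gave log2 FCs of 0.06 (adjusted p = 0.782) and -0.48 (adjusted p = 0.0261), and neither reached 2-fold. The related Cxcr1, at 53.5 and 27.9 CPM against 21.6 and 17.3 CPM, passed (1.07 ± 0.32, adjusted p = 0.0407), but in only 1 of the 4 fits without a library.

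Of 21 pattern recognition and Fc receptors, 2 rose and none fell, but none was called higher without library 5 or without library 9. Tlr1, which pairs with TLR2 to sense lipopeptides, was at 164 and 60.1 CPM in the SP and at 23.2 and 36.1 CPM in the BM (1.92 ± 0.46), and library 5 lay far above library 6. Clec7a, the β-glucan receptor Dectin-1, was at 1074 and 833 CPM against 450.4 and 459 CPM (1.07 ± 0.16). Adgre5, the adhesion receptor CD97, was among the most abundant genes called, at 1338 and 1323 CPM against 592 and 518 CPM (1.26 ± 0.09, adjusted p = 0.000118). Csf1, the growth factor of macrophages, was the only one of 12 marrow-expressed cytokines and chemokines called, at 161 and 144 CPM against 59.0 and 43.2 CPM (1.58 ± 0.17). Il1b, which encodes IL-1β, was at 3135 and 3510 CPM in the SP and at 922 and 1301 CPM in the BM and missed the call (1.58, adjusted p = 0.0572). Of 16 genes named as effectors of granulocytic MDSCs, Wfdc17 (1.76 ± 0.40) and Cd274 were called higher, and Nt5e, the ecto-5′-nucleotidase CD73, lower. Wfdc17 and Cd274 were each called in 1 of the 4 fits without a library, and the list had 0 higher calls without library 9 and 1 without library 5 or 10. Nt5e was at 15.8 and 28.6 CPM in the SP and at 67.8 and 49.99 CPM in the BM (-1.41 ± 0.26).

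A few genes of signalling and stress were called higher, and Ppp1r15a and Egr1 differed widely between the SP libraries. Of the 19 immediate-early genes 17 lay above 0 and 2 were called, with a median log2 FC of 0.60. Ppp1r15a (GADD34), a phosphatase subunit that restores translation after stress, was at 48.1 and 148 CPM in SP libraries 5 and 6 and at 23.3 and 18.6 CPM in BM libraries 9 and 10, a log2 FC of 2.23 ± 0.52 (adjusted p = 0.0204). Egr1, a transcription factor of the early response, was at 54.2 and 913 CPM in the SP and at 163 and 97.5 CPM in the BM, so that library 5 lay below and library 6 above both BM libraries, and it was not called (adjusted p = 0.314). Without library 6 the median of the immediate-early list was 0.01. Ier5, an early response gene, was at 384 and 409 CPM against 214 and 135 CPM (1.18 ± 0.24).

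Of 18 genes for NF-kB subunits and targets, 2 were called higher, 10 passed the adjusted p on the higher side and none on the lower side. Over all 7256 marrow-expressed genes 699 passed on the higher side and 2183 on the lower side. Nfkb2, the p100 precursor of the alternative pathway, was at 92.0 and 66.0 CPM against 38.9 and 34.8 CPM (1.10 ± 0.17), and Tnfaip2 at 1350.4 and 1181 CPM against 568 and 620.3 CPM (1.09 ± 0.16). Neither was called without library 5. Xbp1, the transcription factor of the unfolded protein response and of plasma cells, was at 247 and 204 CPM against 91.3 and 91.5 CPM (1.30 ± 0.12, adjusted p = 0.000239). Among the 14 transcription factors of myeloid cells, Batf (1.22 ± 0.19) and Cebpb (1.08 ± 0.26) rose and Myb, a factor of precursors, fell. Cebpb was at 263 and 261 CPM against 118 and 131 CPM, and it lost its call in each of the 4 fits without a library. Myb was at 10.7 and 18.2 CPM in the SP and at 28.4 and 35.1 CPM in the BM (-1.13 ± 0.24). In the BCL2 family, Pmaip1 and Bcl2l11, which encodes BIM, were called higher of 11 genes, and Bcl2l11 was at 59.5 and 49.4 CPM against 27.7 and 23.5 CPM (1.09 ± 0.13).

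**Figure D4:**
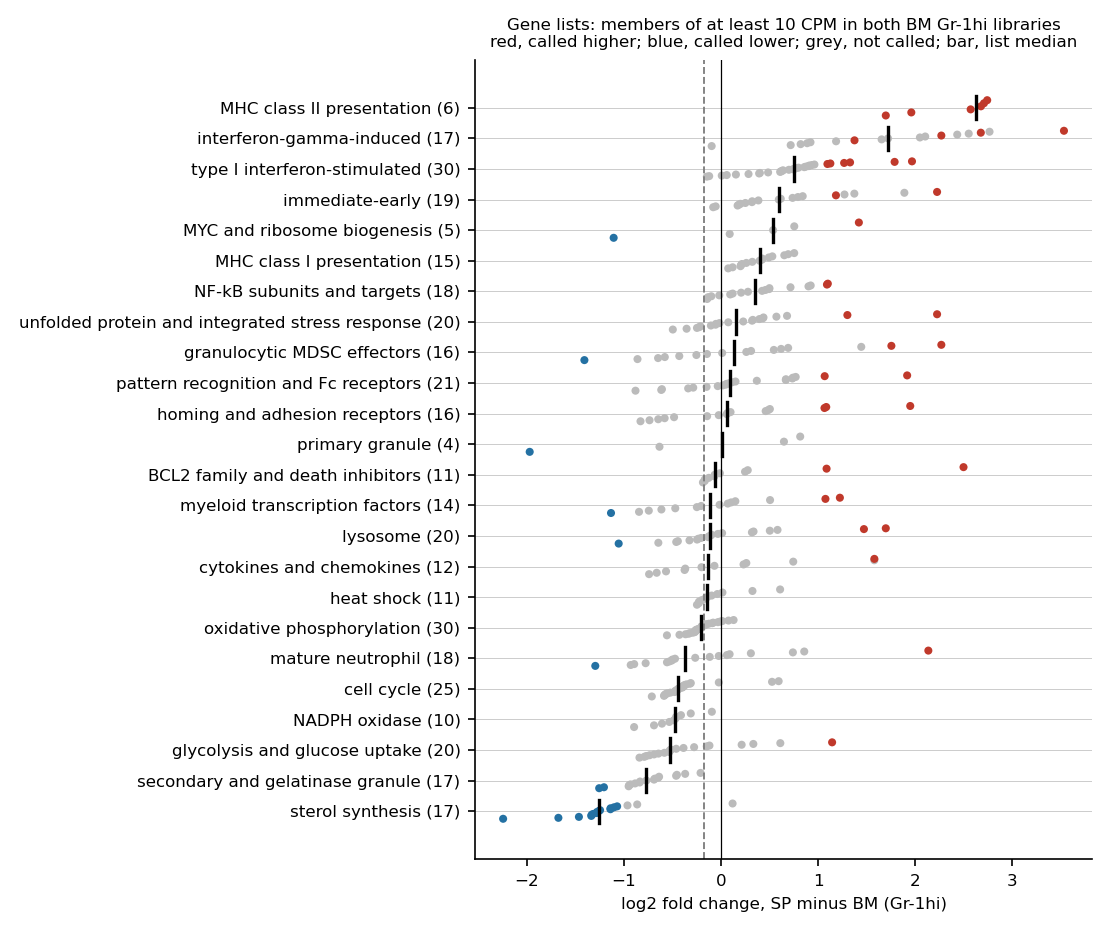
Log2 FC of SP minus BM Gr-1hi cells (x axis) for the marrow-expressed members of 24 gene lists (y axis, number of members in parentheses); each point is a gene (red, called higher; blue, called lower; grey, not called), black bars are list medians, and the dashed line is the median of all marrow-expressed genes (-0.17). MHC class II presentation has the highest median (2.63) and sterol synthesis the lowest (-1.26).

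Sterol synthesis was the list with the most decreases. Of its 17 marrow-expressed genes 14 fell, none rose, 16 lay below 0, and the median log2 FC was -1.26. Among the 14, Hmgcs1, Mvk, Idi1, Fdps, Fdft1, Sqle, Cyp51, Msmo1 and Nsdhl encode enzymes of the pathway, Stard4 a sterol carrier and Srebf2 the transcription factor SREBP2. Sqle, the squalene epoxidase, was at 10.5 and 6.70 CPM in SP libraries 5 and 6 and at 20.9 and 34.1 CPM in BM libraries 9 and 10, a log2 FC of -1.68 ± 0.31. Idi1, an isomerase of the isoprenoid steps, was at 23.7 and 22.2 CPM against 52.4 and 74.3 CPM (-1.47 ± 0.16). Srebf2 was at 165 and 169 CPM against 337 and 365 CPM (-1.07, adjusted p = 0.000209).

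BM library 10 exceeded library 9 for all 17 genes of the list. In the fits without a library 11 to 16 genes of the list were called lower, and 10 to 15 under the other scalings and DESeq2. The fit on quantile-normalized TPM called 8. Of the rest, Insig1 (-0.96) and Mvd (-0.86) passed the adjusted p but not the fold, and Sc5d, the C5 desaturase, was at 86.3 and 72.9 CPM against 69.7 and 76.9 CPM (0.12, adjusted p = 0.480). Hsd17b7, a keto-reductase of the same pathway that was not in the list, was among the 12 largest decreases at 12.4 and 12.5 CPM against 36.9 and 48.1 CPM (-1.77 ± 0.17). The summed level of the list was 669 and 632 CPM in SP Gr-1hi, 1220 and 1570 CPM in BM Gr-1hi, 601 and 574 CPM in SP Gr-1lo and 669 and 753 CPM in BM Gr-1lo cells.

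The sterol element bound by SREBP and the CCAAT box bound by NF-Y are both known from promoters of this pathway, and their letters were searched in the same windows. Of the 14 genes, 7 had a window (Cyp51, Hmgcs1, Idi1, Msmo1, Mvk, Nsdhl and Srebf2). CCAAT was in all 7, beside 48 of 82 (58.5%) marrow-expressed genes called lower, 58 of 134 (43.3%) called higher and 4653 of 10747 (43.3%) of all genes tested. The sterol element in the form TCACNCCAC, a search added after the decreases had been seen, was in 1 of the 7, Hmgcs1, and in 146 of 10747 (1.36%) of all. The stretch of Hmgcs1 with the sterol element and a stretch of Idi1 with CCAAT in reverse complement are shown as examples of each, 60 bases long, with the matches in capitals. They lie on the plus strand at chr13:119690188-119690247 and chr13:8885546-8885605 of GRCm38.p6.
Hmgcs1: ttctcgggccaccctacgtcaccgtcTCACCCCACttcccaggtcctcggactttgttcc
Idi1: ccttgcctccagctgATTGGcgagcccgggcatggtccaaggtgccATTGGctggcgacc
For the other motifs, the share of windows was 12.7% among genes called higher, 8.54% among genes called lower and 6.52% among all genes tested for the AP-1 site TGANTCA, and 14.2%, 6.1% and 9.44% for the NF-kB site. It was 2.99%, 1.22% and 3.45% for the CRE core TGACGTCA, 9.7%, 8.54% and 11.4% for the E-box CACGTG, and 1.49%, 0% and 1.57% for the SRF CArG box.

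Granule genes of late precursors lay lower in the SP. All 17 genes of secondary and gelatinase granules had a log2 FC below 0, with a median of -0.77 against -0.17 over marrow-expressed genes. Of the 17, 13 passed the adjusted p, against 2183 of the 7256 marrow-expressed genes on the lower side, and 2 passed the 2-fold limit. Mmp8, the neutrophil collagenase, was at 2223 and 3807 CPM in SP libraries 5 and 6 and at 7602 and 6803 CPM in BM libraries 9 and 10, a log2 FC of -1.26 ± 0.25 (adjusted p = 0.0074). Olfm4, a secondary granule protein of a subset of neutrophils, was at 522 and 828 CPM against 1557 and 1559 CPM (-1.21 ± 0.23). Ngp and Ltf, which encode neutrophilic granule protein and lactoferrin, gave -0.77 (adjusted p = 0.0446) and -0.68 (adjusted p = 0.0588). Ltf was at 9602 and 16937 CPM in the SP and at 19965 and 22640 CPM in the BM. Library 5 lay below library 6 in each of these 4 genes. Without library 6, 11 of the 17 were called lower, and without library 5, 1 was. The summed level of the list was 50500 and 82500 CPM in the SP and 110000 and 118000 CPM in the BM.

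Among 18 genes of mature neutrophils, 1 was called lower and 1 higher. Of the 18, 12 lay below 0, with a median log2 FC of -0.37. Without the fold limit, 7 passed the adjusted p on the lower side and 3 on the higher side. Of the 7256 marrow-expressed genes, 2183 and 699 did so. Retnlg, a resistin-like protein of neutrophils, was at 3106 and 4045 CPM in the SP and at 9223 and 8339 CPM in the BM, and this decrease (-1.30 ± 0.36, adjusted p = 0.0309) was the most abundant of those called. It was lost in each of the 4 fits without a library. Ccrl2, a receptor that presents chemerin, was at 40.6 and 109 CPM against 11.7 and 22.3 CPM (2.14 ± 0.52). Of the 4 marrow-expressed genes of primary granules, Mpo, which encodes myeloperoxidase, was called lower at 3.35 and 8.13 CPM against 26.02 and 18.9 CPM (-1.97 ± 0.49, adjusted p = 0.0232). Its level in Gr-1lo cells was far above both, between 509 and 1714 CPM. The NADPH oxidase genes, which make the respiratory burst, had no call among 10 in edgeR or DESeq2, but all 10 lay below 0 (median -0.48). Of the 10, 9 had an unadjusted p under 0.05 and 8 passed the adjusted p, against 2183 of the 7256 marrow-expressed genes on the lower side. With TMM factors from marrow-expressed genes 9 of the 10 lay below 0. Ncf1, the p47phox subunit, was at 1389 and 2184 CPM against 3324 and 3325 CPM (-0.90 ± 0.19).

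The largest decreases outside these lists had various roles, and several belong to pairs of neighbours or relatives. Dmpk, the myotonic dystrophy protein kinase (chr7:19083849-19093821), was at 3.38 and 6.54 CPM in SP libraries 5 and 6 and at 34.4 and 24.8 CPM in BM libraries 9 and 10, the lowest log2 FC of all marrow-expressed genes called (-2.58 ± 0.46, adjusted p = 0.00528). Dmwd, a WD-repeat gene that ends just before it on the same strand (chr7:19076227-19082776), was at 12.1 and 26.7 CPM against 105 and 86.2 CPM (-2.30 ± 0.33). Crtac1, a secreted cartilage protein, was at 3.83 and 5.55 CPM against 27.4 and 19.4 CPM (-2.32 ± 0.29). In Gr-1lo cells these 3 genes were at 0.397 CPM or less. Stfa3, one of the stefin A protease inhibitors of neutrophils, was at 8.17 and 6.603 CPM against 17.5 and 31.3 CPM (-1.72 ± 0.27), and reads of this gene may be shared with its near-identical relatives.

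Further decreases among the 12 largest were Mcf2l, a guanine nucleotide exchange factor (-1.62 ± 0.16), Prss34, a serine protease of mast cells and basophils (-1.55 ± 0.25), Dapk2, a death-associated kinase (-1.55 ± 0.26), and Chst13, a chondroitin sulfotransferase (-1.52 ± 0.20). Prss34 is a member of the eosinophil and basophil list, whose part in its decrease was not tested. Among abundant genes, Itgb2l, an integrin β chain of neutrophils, was at 539 and 976 CPM against 1629 and 1676 CPM (-1.13 ± 0.23). Adpgk, an ADP-dependent glucokinase, was at 1195 and 2243 CPM against 3585 and 3533 CPM (-1.05 ± 0.25). Cd63, a tetraspanin of primary granules and lysosomes, was at 60.7 and 88.2 CPM against 152 and 158 CPM (-1.06 ± 0.19) and was the only one of 20 lysosomal genes called lower. The lysosomal proteases Ctss and Ctsa were called higher, the latter at 277 and 188 CPM against 90.4 and 77.2 CPM (1.47 ± 0.17).

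Among marrow-expressed genes, lists of growth and metabolism showed few or no calls. None of 25 cell cycle genes was called by edgeR or DESeq2, 23 lay below 0 (median -0.44), and 2 higher and 5 lower genes had an unadjusted p under 0.05. Mki67, the proliferation antigen Ki-67, was at 152 and 188 CPM in the SP and at 174 and 260.2 CPM in the BM, so that the groups overlapped (-0.36 ± 0.18, adjusted p = 0.160). None of 30 genes of oxidative phosphorylation and none of 11 heat shock genes was called by either tool, with medians of -0.21 and -0.14, near that of all marrow-expressed genes. At an unadjusted p under 0.05 were 14 lower genes of oxidative phosphorylation and 2 higher and 1 lower heat shock genes. At an adjusted p of at most 0.05 without the fold limit, 699 of the 7256 marrow-expressed genes passed on the higher side and 2183 on the lower side. Of the 3 lists, 2 cell cycle genes passed on each side, 4 oxidative phosphorylation genes on the lower side and 1 heat shock gene on the higher side. These counts depended on the settings: on the lower side DESeq2 passed 11 cell cycle, 19 oxidative phosphorylation and 3 heat shock genes, and the fit without library 6 passed 17, 20 and 5. RLE scaling passed 18 oxidative phosphorylation genes, and 19 cell cycle genes passed without a filter on low counts and 18 without library 9. For glycolysis and glucose uptake, 16 of 20 genes lay below 0 (median -0.52) and 13 passed the adjusted p on the lower side without reaching 2-fold. Slc2a3, the glucose transporter GLUT3, was at 1107 and 1296 CPM against 2128 and 2175 CPM (-0.84, adjusted p = 0.00203). Pdk1, a kinase that keeps pyruvate out of mitochondria, went the other way at 30.02 and 18.8 CPM against 10.8 and 11.2 CPM (1.14 ± 0.21). Of 22 tested genes of MYC and ribosome biogenesis, 16 were called higher and 1 lower, with a median log2 FC of 1.42, against 14.0% called higher of all genes tested. Most of them lay under the 10 CPM limit: Myc itself was at 5.94 and 7.08 CPM in the SP and at 1.38 and 1.11 CPM in the BM (2.37, adjusted p = 0.000231). The lymphoid and plasma cell lists were higher in the same libraries, and their part was not tested. The marrow-expressed ones were 5, of which Npm1, nucleophosmin, rose (1.42 ± 0.12) and Polr1a, the large subunit of RNA polymerase I, fell (-1.11 ± 0.15).

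The same 285 genes were read in the Gr-1lo cells of the 2 organs, which are monocyte-rich. SP library 7 held both Xist (209 CPM) and Ddx3y (33.7 CPM). In libraries 8, 11 and 12, likewise labelled female, Xist was at most 0.102 CPM and Ddx3y at 56.8, 57.0 and 52.5 CPM. The part of this in the Gr-1lo differences and the interaction was not tested. Between SP and BM Gr-1lo cells, 90 (1.24%) of the marrow-expressed genes were called higher and 2 (0.0276%) lower in the SP. Of the 174 genes called higher in Gr-1hi cells, 138 had the same sign in Gr-1lo cells and 19 were called higher there, with a median log2 FC of 0.37 against -0.02 over all marrow-expressed genes. Of the 111 genes called lower, 65 had the same sign, 2 were called lower and 2 higher, with a median of -0.10. Over all 7256 marrow-expressed genes the Gr-1lo log2 FC lay above 0 in 3280 and below 0 in 3976. The share of the 65 is thus near that of all these genes. The test of the difference between the subsets (interaction of tissue and subset) passed an adjusted p of 0.05 in 1275 (17.6%) of the marrow-expressed genes, among them 86 of the 174 and 57 of the 111. These genes had been chosen by their Gr-1hi difference, which favours a larger difference in that subset. Dusp16 and Pmaip1 were higher in the SP in both subsets, with log2 FCs in Gr-1lo cells of 2.26 and 2.26 and an interaction that did not pass (adjusted p = 0.275 and 0.579). Itga4 rose less in Gr-1lo cells, at 523 and 632 CPM in the SP and 371 and 406 CPM in the BM (interaction 1.38, adjusted p = 0.0035). Itgax, the integrin CD11c, differed more in Gr-1lo than in Gr-1hi cells (4.004 against 1.59, interaction adjusted p = 0.015).

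**Figure D5:**
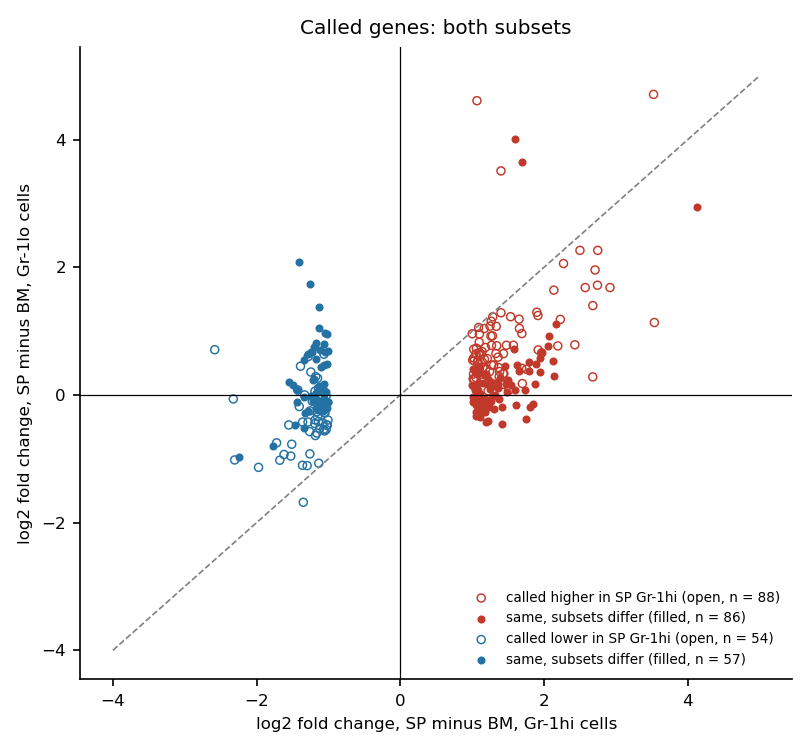
Log2 FC of SP minus BM in Gr-1hi cells (x axis) and in Gr-1lo cells (y axis) for the 285 called marrow-expressed genes; red, called higher, blue, called lower in SP Gr-1hi cells; filled points passed the interaction test (86 and 57 genes), and the dashed line marks equal changes. Most points lie nearer to 0 on the y axis, where the medians are 0.37 and -0.10.

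The position of the called genes between the subsets also differed by direction. Of the 111 genes called lower, 104 had a higher mean in BM Gr-1hi than in BM Gr-1lo cells and 71 by at least 4-fold, while this held for 4642 and 1014 of the 7256 marrow-expressed genes. Of the 174 called higher, 75 had a higher mean in BM Gr-1hi than in BM Gr-1lo cells. In the SP, 111 of the 174 were higher in Gr-1hi cells than in either Gr-1lo group, as were 88 of the 111 called lower. This held for 4246 of the 7256 marrow-expressed genes. Of the 174, 63 were higher in SP Gr-1lo than in SP Gr-1hi cells. The calls and these counts share the BM Gr-1hi libraries, and no test was made on them.

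Genes under the 10 CPM limit included lymphoid markers beside the genes of ribosome biogenesis given above. Heat shock genes lay there too, with 4 of 18 tested called higher: Hspa1a (3.08), Hspa1b (2.90), Hsph1 (2.83) and Hspe1 (2.05), each in all 4 fits without a library, and Hspa1a was at 14.8 and 13.01 CPM in the SP and at 1.87 and 1.40 CPM in the BM. For comparison, 14.0% of all genes tested were called higher, and 2291 of the 10394 outside the marrow-expressed set. Trbc2, a constant region of the T cell receptor, was at 30.6 and 19.2 CPM in SP libraries 5 and 6 and at 0.710 and 0.826 CPM in BM libraries 9 and 10 (5.02 ± 0.33, adjusted p = 9.55e-05). Tbx21, the transcription factor T-bet of T and NK cells, was at 4.82 and 4.27 CPM against 0.150 and 0.0826 CPM (5.24 ± 0.43). Both were called in all 4 fits without a library, as was Gzmb, which encodes granzyme B (3.02 ± 0.42). These levels are low beside those of neutrophil genes in the same libraries, whose list summed to 90100 CPM or more.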

How the data were processed

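Total RNA of sorted cells was sequenced from stranded mRNA libraries. According to the submitters' processing notes and the methods, the authors checked reads with FastQC, trimmed them with Sickle, aligned them to GRCm38 (mm10) with STAR and counted them per GENCODE M24 gene with featureCounts. The deposited values are raw counts, whole numbers without normalization. From these, edgeR 4.0.16 in R 4.3.3 (filterByExpr, TMM, robust quasi-likelihood test, 1 term per group, all 8 libraries, 4 residual degrees of freedom, Benjamini-Hochberg adjustment over the 17650 genes tested) gave fold changes, SEs and adjusted p values. DESeq2 1.42.0 and limma 3.58.1 served the alternatives. Coordinates, lengths and biotypes came from GENCODE M21 on the same build, which holds 53947 of the 54188 identifiers. Where 2 identifiers share a symbol, the more abundant one stands for it. The procedure was tested on simulated counts with 200 changed genes.

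The genes, gene lists and thresholds were chosen with earlier results of these data known. Named genes are the 12 largest increases and decreases and the 8 most abundant in each direction. These were taken among marrow-expressed DEGs without overlap between the SP and BM Gr-1hi libraries. Further named genes are up to 3 called marrow-expressed members of each list or else its 2 most abundant, and 5 checks of the labels. Members of lists named beside these (Gbp4, Csf1r, Ly6c2, Myc, the 4 heat shock genes under 10 CPM, Egr1, Il1b, Cxcr2, Cxcr4, Icam1, S1pr1, Ccr7, Ngp, Ltf, Slc2a3, Srebf2, Insig1, Mvd, Sc5d and the other sterol genes) were chosen after their values had been seen. A few genes that meet these rules are not reported here. Alternatives were other scalings, no filter, DESeq2, a fit of the 4 libraries, a test against 1.5-fold, the adjusted p alone, other floors, quantile-normalized TPM, and each library left out.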

Additional observations from a re-analysis of the deposited data

Results flagged for a closer look

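For 29 of the named genes the SP against BM difference in Gr-1hi cells was not that of Gr-1lo cells by the interaction test of edgeR (adjusted p of at most 0.05). The interaction is the Gr-1hi log2 FC minus the Gr-1lo log2 FC, and a positive value means a higher log2 FC in Gr-1hi than in Gr-1lo cells. It was positive for Npm1 (1.87), Siglecf (1.62), Itga4 (1.38), Ctsa (1.3), Slfn5 (1.27), Ly6e (1.24), Pdk1 (1.21), Igkc (1.19), Xbp1 (1.11), Batf (1.03), Csf1 (0.85), Itgb1 (0.74) and Bcl2l11 (0.68). For Npm1, Siglecf, Ly6e and Pdk1 the Gr-1lo log2 FC was below 0, at -0.45, -0.43, -0.06 and -0.07, and none of these 4 was called in Gr-1lo cells.

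It was negative for Nt5e (-3.49), Itgax (-2.41), Itgb2l (-2.18), Adpgk (-2.03), Olfm4 (-1.96), S100a9 (-1.77), Dapk2 (-1.75), S100a8 (-1.65), Ly6g (-1.59), Pde2a (-1.51), Ncf1 (-1.03), Idi1 (-1), Hsd17b7 (-0.96), Polr1a (-0.95), Rab3d (-0.84) and Rac2 (-0.48). Neutrophil genes among them were lower in SP than BM Gr-1hi cells and higher in SP than BM Gr-1lo cells: S100a9 gave log2 FCs of -0.68 and 1.09, S100a8 of -0.68 and 0.97, and Itgb2l of -1.13 and 1.05. S100a9 in Gr-1lo cells was at 3614 and 2912 CPM in the SP and 1492 and 1579 CPM in the BM, far under the Gr-1hi level. Idi1, Hsd17b7, Polr1a and Rab3d were lower in the SP in both subsets, with the larger decrease in Gr-1hi cells. Nt5e in Gr-1lo cells was at only 0.865 and 0.753 CPM in the SP and 0.184 and 0.189 CPM in the BM. Dapk2 lay at 0.718 CPM or less in the Gr-1lo libraries.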

How the results depend on the processing

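No paired analysis was possible because neither the labels nor the methods say which SP and BM libraries shared a mouse. Among marrow-expressed genes the higher count of 174 became 264 with TMM factors from these genes, 699 with the adjusted p alone, 87 with a floor of 30 CPM and 366 with the floor on the mean of the 4 libraries, and 66 to 189 without 1 library. The lower count of 111 became 182 with RLE, 54 with TMM factors from marrow-expressed genes, 181 with DESeq2, 2183 with the adjusted p alone, 70 with a floor of 30 CPM and 50 with quantile-normalized TPM, and 59 to 552 without 1 library. Over all genes tested the higher count of 2465 became 620 with quantile-normalized TPM and 1578 to 2626 without 1 library. The lower count of 262 became 398 with RLE, 129 with TMM factors from marrow-expressed genes, 138 in the test against 1.5-fold, 2455 with the adjusted p alone and 68 with quantile-normalized TPM, and 137 to 892 without 1 library. Fewer genes enter under the higher floor and more under the floor on the mean; for the others the cause was not tested. Signs turned only for genes that were not called: Atp5a1 (main 0.01) was at -0.06 with RLE and DESeq2 and between -0.14 and -0.0022 without 1 library, Atp5b (-0.16) at 0.02 and Hspa8 (-0.10) at 0.08 with TMM factors from marrow-expressed genes, H2-D1 (0.12) at -0.04 without library 5 and Itga2b (0.16) between -0.21 (without library 10) and 0.44 (without library 9). With 2 libraries a group, a library left out leaves a lone sample that is assumed to vary like the other groups.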

Other observations

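The genes of cytosolic ribosomal proteins, a family looked at after the calls had been seen, lay slightly higher in SP Gr-1hi cells. Of 79 marrow-expressed members 8 were called higher and none lower, 76 had a log2 FC above 0, and the median was 0.45. They summed to 11100 and 10400 CPM in SP libraries 5 and 6 and to 7540 and 8490 CPM in BM libraries 9 and 10. All 79 had a higher mean in SP Gr-1lo than in SP Gr-1hi cells, and their median between SP and BM Gr-1lo cells was -0.17. Of 15 marrow-expressed genes encoded by mitochondrial DNA, 3 were called higher, 13 lay above 0, and the median was 0.58. Their sum was 9640 and 8470 CPM in the SP and 6120 and 8210 CPM in the BM, so that library 10 came close to library 6.

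The 4 globin genes tested summed to 216 and 725 CPM in SP libraries 5 and 6 and to 35.2 and 43.6 CPM in the BM. All 4 were called higher in Gr-1hi and in Gr-1lo cells, with medians of 3.57 and 4.66.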
